A study of Mus musculus with 8 samples.

Results

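Oxidative phosphorylation is carried out by 5 multi-subunit complexes of the inner mitochondrial membrane, and the genes described here are the nuclear genes for their subunits. They were chosen by name in the deposited table of 23366 genes, as all rows whose symbols begin with Nduf followed by a, b, c, s or v, with Uqcr, with Cox and a digit from 4 to 8, or with Atp5, together with Sdha, Sdhb, Sdhc and Sdhd. The rule found 92 genes and used no measured value. Of these, 81 encode subunits (36 of complex I, 4 of complex II, 8 of complex III, 18 of complex IV and 15 of complex V), 10 encode assembly factors or related proteins, and Ndufa4l2 is a relative of Ndufa4. Ndufa4 was counted with complex IV, where its protein resides. The name pattern misses a few true subunits, among them cytochrome c1 (Cyc1), which is treated with the other respiratory chain genes.

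The libraries were made from pancreatic beta cells, the cells that secrete insulin, sorted from NOD mice aged 8 to 10 weeks. NOD is an inbred strain prone to autoimmune diabetes, and no transgene, deletion or treatment is named for any group. The cells were sorted into a population labelled top and a population labelled bottom. Each population has 4 libraries, of which 1 and 2 belong to batch 1 and 3 and 4 to batch 2, so that each batch holds 2 top and 2 bottom libraries. Each library was amplified from about 1000 cells. Separate animals are not named for the libraries, and the p-values therefore measure library-to-library spread alone, part of which may be technical. The comparison asks how RNA levels in bottom differ from those in top.

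Electrons from NADH enter the respiratory chain at complex I and those from succinate at complex II, pass through ubiquinone, complex III and cytochrome c, and reach oxygen at complex IV. The proton gradient that complexes I, III and IV build drives ATP synthesis at complex V. In beta cells the ATP made in this way when glucose is metabolised closes potassium channels and so triggers insulin release.

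The libraries held 6657639 to 11262368 counts each. Levels below are in CPM, each gene's counts scaled to a fixed library total, after TMM scaling of the library totals, which makes the bulk of genes comparable between libraries. The summed level of 8 beta cell markers was 344010 to 505630 CPM in top and 38724 to 81371 CPM in bottom, where Ins1, Ins2 and G6pc2 were lower (adjusted p = 0.00498 each, edgeR quasi-likelihood test). The delta cell genes Sst, Hhex and Rbp4 and the pancreatic polypeptide gene Ppy were higher in bottom (adjusted p = 0.00498, 0.0275, 0.00498 and 0.0203). In libraries of many cells, fewer cells of a type and less RNA per cell cannot be told apart. Of the fibroblast markers Col3a1 and Dcn were higher in bottom, and the summed level of 5 such markers was 0 to 12.4 CPM in top and 3.28 to 738 CPM in bottom. The 4 leukocyte markers summed to at most 3.48 CPM in any library. Bottom 1 and bottom 2, which are both bottom libraries of batch 1, stood apart by their intestinal epithelial transcripts. The 6 intestinal markers summed to 11193 CPM in bottom 1 and 2725 CPM in bottom 2. The sums were 39.0 and 12.7 CPM in bottom 3 and bottom 4, and 699.7, 74.7, 50.6 and 372 CPM in top 1 to top 4. The abundant intestinal gene Fabp2 was at 7929 and 1780 CPM in bottom 1 and bottom 2, and the transcription factor gene Cdx1 was at 0 in all libraries but these.

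The oxidative phosphorylation genes had median fold changes of opposite sign in the 2 batches. In batch 1 their levels were mostly higher in bottom, with a positive log2 fold change (bottom minus top) for 72 of the 85 genes with enough counts to test and a median of 0.61, a 1.53-fold higher level. In batch 2 they were mostly lower in bottom, with a negative value for 63 of 85 and a median of -0.23, a level of 0.852 times that in top. Over all 11721 tested genes the median was 0.03 in batch 1 and -0.01 in batch 2. The intestinal transcripts above moved with this result, being highest in the bottom libraries of batch 1, and their part in it was not tested. The alpha cell markers differed between the batches as well. Their summed level, nearly all of it the glucagon gene Gcg, was 73463, 64978, 137930 and 91813 CPM in top 1 to top 4 and 50905, 141660, 28876 and 43125 CPM in bottom 1 to bottom 4. In batch 2 both bottom libraries were below both top libraries, and in batch 1 they lay on either side of them. The 4 alpha cell markers had median log2 fold changes of 0.21 in batch 1 and -0.86 in batch 2, where 4 of 4 values were negative, and edgeR called none in either batch. Ppy and Sst, higher in bottom in both batches, also differed in level between the bottom libraries of the batches. Ppy was at 306 to 1691 CPM in top and at 64905, 78759, 8226 and 17944 CPM in bottom 1 to bottom 4. Sst was at 2333 to 5048 CPM in top and at 51102, 55701, 31584 and 32046 CPM in bottom 1 to bottom 4. The part of the alpha cell markers, Ppy and Sst in the levels below was not tested.

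No single gene of the 92 passed the test. At an adjusted p under 0.05 in edgeR's quasi-likelihood test, 0 of 85 were called in both batches together, where 0.444% of all tested genes were called (0.282% higher and 0.162% lower in bottom). None was called in batch 1 (0.0683% of all genes, 0.0341% in each direction), in batch 2 (0%) or for the difference between the batches (0%). At an unadjusted p under 0.05, 1 of the 85 genes was higher and 3 were lower with both batches together, where 5.62% of all tested genes were higher and 4.63% lower. In batch 1, 16 were higher and 1 lower, against 5.87% and 6.19% of all genes. In batch 2, 1 was higher and 1 lower, against 3.93% and 3.39%. DESeq2 called 1 of these genes over both batches, 3 in batch 1, 0 in batch 2 and 2 for the difference. Of all genes with any counts it called 848, 795, 480 and 316. Those genes outnumber the 11721 tested in edgeR, so these are at most 7.23%, 6.78%, 4.1% and 2.7% of the genes DESeq2 fitted. Limma-trend called 0 of the 85 genes in each comparison. Of all tested genes it called 1.17% over both batches, 0.188% in batch 1, 0.171% in batch 2 and 0% for the difference. The calls over the whole table differed too, since over both batches edgeR called 52 of all genes, limma-trend 137 and DESeq2 848. Without the filter edgeR called 204 over both batches and 204 in batch 1. For DESeq2 the tool and the missing filter therefore cannot be told apart. All 7 genes left untested had too few counts, and 6 of these are tissue-restricted subunit isoforms of complex IV.

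The value in each library shows where the batch difference lies. Summed over the 92 genes, the level was 13347, 14905, 11792 and 13608 CPM in top 1 to top 4. It was 25952, 16382, 11248 and 10904 CPM in bottom 1 to bottom 4. Bottom 1 was far above every other library, bottom 2 was the next highest, and bottom 3 and bottom 4 were below all 4 top libraries, so that the top libraries lay between the bottom libraries of the 2 batches. The mean was 13413 ± 1278 CPM in top and 16122 ± 7016 CPM in bottom (SD, n = 4), a difference smaller than the spread among the bottom libraries. This order holds after TMM scaling. As a share of all counts of a library, the 92 genes made up 1.19%, 1.27%, 1.03% and 1.29% in top 1 to top 4 and 2.54%, 1.56%, 1.47% and 1.34% in bottom 1 to bottom 4, so that on this scale each bottom library was above each top library. With both batches together the median log2 fold change of the tested genes was 0.21, and 64 of 85 values were positive.

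That positive median rested largely on bottom 1, from batch 1. Without bottom 1 the median over both batches was 0.00, with 43 of 85 positive values. Without bottom 1 and bottom 2, an omission chosen after the data were seen, the median was -0.23 and 22 values were positive. Batch 1 then holds no bottom library, so this fit can return only the batch 2 comparison and adds nothing to it. Within batch 1 the median was 0.23 without bottom 1 and 0.95 without bottom 2, with 62 of 85 values positive in the first case. In batch 2 it ranged from -0.29 to -0.09 when 1 library was omitted.

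Within batches the libraries separated for many of the genes. In batch 1, both bottom libraries were above both top libraries for 42 of 85 genes (49.4%), against 20.3% of all tested genes, and below them for 5 (5.88%), against 23.1%. In batch 2, both bottom libraries were below both top libraries for 25 genes (29.4%), against 18.3% of all genes, and above them for 4 (4.71%), against 20.2%. For 10 genes the separation was complete in both batches and opposite in direction, higher in bottom in batch 1 and lower in batch 2, and for 0 genes it was the other way round. These are 11.8% and 0% of the 85, against 2.68% and 3.22% of all tested genes. Across all 8 libraries the 4 bottom libraries separated from the 4 top libraries for 0 of the 85 genes, against 3.31% of all genes on the higher and 3.91% on the lower side. Taking direction alone, 51 of the 85 genes had a positive value in batch 1 and a negative one in batch 2, 21 were positive in both, 12 negative in both, and 1 negative only in batch 1. The difference between the batches (batch 2 minus batch 1) had a median of -0.68, against 0.02 over all genes, and 76 of 85 genes (89.4%) had the larger value in batch 1, as did 49.5% of all tested genes.

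**Figure D1:**
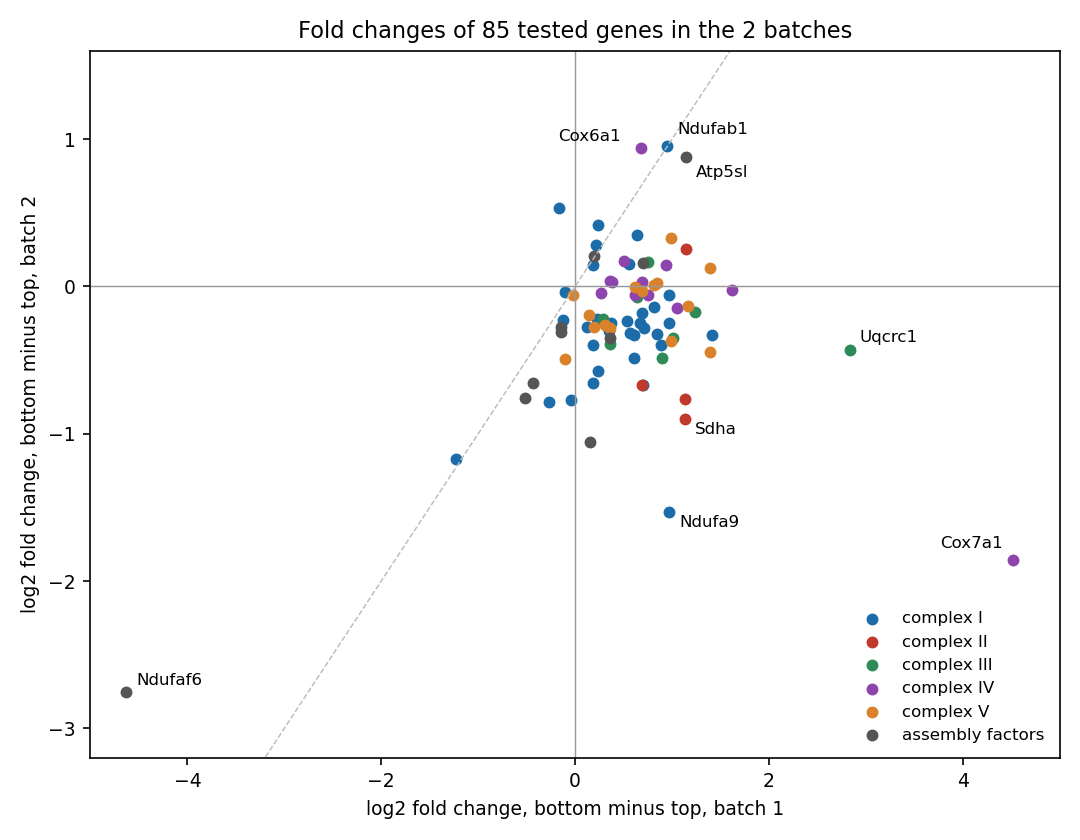
Log2 fold change of bottom against top in batch 1 (horizontal) and in batch 2 (vertical) for each of the 85 tested genes, coloured by complex, with the dashed line marking equal values. Most points lie to the right of the vertical line and below the horizontal line, with Cox7a1 and Uqcrc1 farthest to the right and Ndufaf6 farthest to the left.

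The scaling of the libraries sets the sign of the batch 2 value but not its place among all genes. With library totals alone the median in batch 2 was 0.26, only 16 of 85 values were negative, and the median of all tested genes became 0.49. Relative to all genes the oxidative phosphorylation genes stood at -0.23 in batch 2 under either scaling. In batch 1 they stood 0.59 above all genes with TMM and 0.60 above with library totals.

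The promoters of 5 of these genes are shown because they span the patterns described below: Uqcrc1, Cox7a1 and Sdha differed widely between the batches, Atp5d was the highest of complex V, and Cox6a1 had the same direction in both batches. Each line gives the 150 bases before the RefSeq start of the gene on its own strand, 5′ to 3′, in build GRCm38.p6. The coordinates are those of RefSeq and not of the deposited tables, whose rows carry none. Capitals mark matches to the core of nuclear respiratory factor 1 (NRF1 core, GCGCA followed by any base and GCGC) and to the core bound by GABPA and other ETS factors (CCGGAAG), both strands searched. NRF1 and GABPA are known activators of nuclear genes for mitochondrial proteins.
Uqcrc1, chr9:108936498-108936647, plus strand: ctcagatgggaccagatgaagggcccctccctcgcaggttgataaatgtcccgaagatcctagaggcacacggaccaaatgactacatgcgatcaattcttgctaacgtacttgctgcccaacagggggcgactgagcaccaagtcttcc
Cox7a1, chr7:30184021-30184170, plus strand: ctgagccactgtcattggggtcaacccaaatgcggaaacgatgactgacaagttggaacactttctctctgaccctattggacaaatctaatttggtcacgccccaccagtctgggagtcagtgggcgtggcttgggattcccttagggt
Sdha, chr13:74350241-74350390, minus strand: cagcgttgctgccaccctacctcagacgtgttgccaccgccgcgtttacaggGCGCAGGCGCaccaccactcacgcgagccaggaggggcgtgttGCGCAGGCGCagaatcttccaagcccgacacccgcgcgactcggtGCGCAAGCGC
Atp5d, chr10:80142125-80142274, plus strand: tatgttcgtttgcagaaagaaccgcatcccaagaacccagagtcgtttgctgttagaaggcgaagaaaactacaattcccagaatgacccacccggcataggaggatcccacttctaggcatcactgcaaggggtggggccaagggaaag
Cox6a1, chr5:115348959-115349108, minus strand: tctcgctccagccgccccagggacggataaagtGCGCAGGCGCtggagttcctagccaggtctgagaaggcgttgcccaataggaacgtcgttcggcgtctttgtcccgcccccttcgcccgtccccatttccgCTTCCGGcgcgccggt
The Sdha stretch holds 3 NRF1 matches, the Cox6a1 stretch holds 1 match to each core, and the other 3 stretches hold none. Uqcrc1 does hold the NRF1 core in the longer window of 300 bases used below, outside the stretch shown. Atp5d has 2 starts in the table, of which 1 is shown.

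The matches are a description of letters and not of binding. Of the 92 genes, 76 were found in the RefSeq promoter table, 73 by their current and 3 by an older symbol. In windows of 300 bases (250 before the start and 50 after it), 25.0% of the 76 held the NRF1 core, against 5.19% of 27025 genes. The GABPA and ETS core was in 22.4% against 9.93%, and the core of YY1 (AAGATG followed by GCGG), another factor known at such promoters, was in 7.89% against 0.995%. The ribosomal protein genes differed from this by motif. The NRF1 core was in 8.2% of the cytosolic and 18.8% of the mitochondrial ribosomal protein genes, both below the oxidative phosphorylation genes. The GABPA and ETS core was in 41.0% and 37.7% of them, both above. The YY1 core was in 3.28% and 7.25%. The direction by batch was alike with and without the NRF1 core. The median log2 fold change in batch 1 was 0.55 for the 19 tested genes with it and 0.63 for the 54 without it, and in batch 2 it was -0.26 and -0.19.

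Complex I, the NADH dehydrogenase, is the largest of the complexes, and all 36 of its genes were tested. Its summed level was 4611, 5516, 4257 and 5082 CPM in top 1 to top 4 and 7350, 5461, 3928 and 3823 CPM in bottom 1 to bottom 4. In batch 1, 30 of 36 values were positive with a median of 0.55, and in batch 2, 29 of 36 were negative with a median of -0.26. None was called in either batch. Without bottom 1 the batch 1 median was 0.28. The 7 core subunits that carry the catalytic steps had medians of 0.63 and -0.32 in the batches, and the 29 accessory subunits had 0.36 and -0.25. Both libraries of bottom lay above both of top for 18 of the 36 in batch 1, against 20.3% of all tested genes, and below them for 15 in batch 2, against 18.3%.

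Ndufa9, an accessory subunit, had the largest difference between the batches in complex I. It was at 39.8, 25.2, 55.2 and 42.7 CPM in top 1 to top 4 and at 105, 22.6, 12.7 and 21.1 CPM in bottom 1 to bottom 4. The batch 1 value of 0.97 rested on bottom 1 and was -0.53 without it, while in batch 2 both bottom libraries were below both top libraries (-1.53, SE 0.774, adjusted p = 0.739). The difference of -2.50 had an adjusted p of 0.659.

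In complex I the libraries separated in both batches in the same direction for 4 of the 36 genes (2 higher and 2 lower in bottom), and in opposite directions for 5. Of all tested genes, 5.79% were higher and 6.15% lower in both batches. The genes named next were chosen after their values were seen. Ndufab1, the mitochondrial acyl carrier protein, was at 19.996, 69.6, 11.9 and 26.0 CPM in top 1 to top 4 and at 98.5, 74.8, 43.3 and 30.1 CPM in bottom 1 to bottom 4. Its log2 fold change was 0.95 in each batch (adjusted p = 0.554 over both), the highest of the complex over both batches and in batch 2 but not in batch 1. Ndufv2, a core iron-sulfur subunit, was also higher in both bottom libraries of each batch. Ndufv3, an accessory subunit of the NADH-binding module, was lower in both bottom libraries of each batch. It was at 122 to 187 CPM in top and 86.9 to 143 CPM in bottom, with a log2 fold change of -0.52 (adjusted p = 0.585). At the other end of the batch comparison, Ndufb2 and Ndufc2 of the membrane arm had larger values in batch 2, by 0.70 and 0.18. Both differences turned negative without 1 library, Ndufb2 without top 3 (-0.09) and Ndufc2 without bottom 3 (-0.20).

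Complex II, succinate dehydrogenase, is the only complex that is also an enzyme of the citric acid cycle, and it had the widest gap between the batch medians. Its summed level was 614, 637, 662 and 563 CPM in top 1 to top 4 and 1816, 829, 376 and 488 CPM in bottom 1 to bottom 4. The top libraries were close together, both batch 1 bottom libraries were above them, and both batch 2 bottom libraries were below them. The median was 1.13 in batch 1, with 4 of 4 values positive, and -0.72 in batch 2, with 3 of 4 negative. The batch 1 median was 0.22 without bottom 1.

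Sdha, the flavoprotein that oxidises succinate, was at 141, 165, 225 and 161 CPM in top 1 to top 4. It was at 386, 285, 66.7 and 140 CPM in bottom 1 to bottom 4. In each batch the libraries separated completely and in opposite directions, with a log2 fold change of 1.13 (SE 0.433, adjusted p = 0.355) in batch 1 and -0.90 (SE 0.431, adjusted p = 0.712) in batch 2. The batch 2 value was -1.53 without bottom 4 and -0.46 without bottom 3. The difference of -2.03 had an adjusted p of 0.511. Sdhd, a membrane anchor, had the same pattern, with 1.13 and -0.76. Sdhb, the iron-sulfur subunit, had the highest value over both batches (0.70, adjusted p = 0.635, and 0.18 without bottom 1) and Sdhc, the other anchor, the lowest (0.01). Bottom 1 was at 595 CPM for Sdhb, while the other 7 libraries were between 93.0 and 194 CPM.

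Complex III passes electrons from ubiquinol to cytochrome c, and its 8 genes all had positive values in batch 1. The median was 0.83 in batch 1 and -0.28 in batch 2, where 7 of 8 were negative, and the batch 1 median was 0.45 without bottom 1. Its sum was 1543 to 1632 CPM in the 4 top libraries and 3372, 2301, 1314 and 1444 CPM in bottom 1 to bottom 4. As for complex II, the top libraries were nearly level and lay between the bottom libraries of the batches.

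Uqcrc1, a core protein of complex III, had the lowest adjusted p of the 85 genes in batch 1. It was at 35.0, 79.6, 63.8 and 20.01 CPM in top 1 to top 4. It was at 425.2, 392.2, 38.0 and 24.3 CPM in bottom 1 to bottom 4. The batch 1 bottom libraries stood alone, and the other 6 libraries overlapped. The log2 fold change was 2.83 (SE 0.647) in batch 1, a 7.13-fold higher level in bottom, with an adjusted p of 0.197. In batch 2 it was -0.43, and the difference of -3.26 (SE 0.878) had an adjusted p of 0.499. DESeq2 called Uqcrc1 in batch 1 (adjusted p = 0.00163) and for the difference (adjusted p = 0.0360). Run without the filter on low counts, edgeR called Uqcrc1 in batch 1 (adjusted p = 0.0152), where it called 204 of all genes. The batch 1 value was 2.36 to 3.53 when 1 library was omitted. The batch 2 value turned to 0.63 without top 3 and to 0.11 with library totals alone. The smallest value of the complex over both batches was that of Uqcrq, a small subunit, at -0.02, with 272 to 324 CPM in top and 216 to 452 CPM in bottom.

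**Figure D2:**
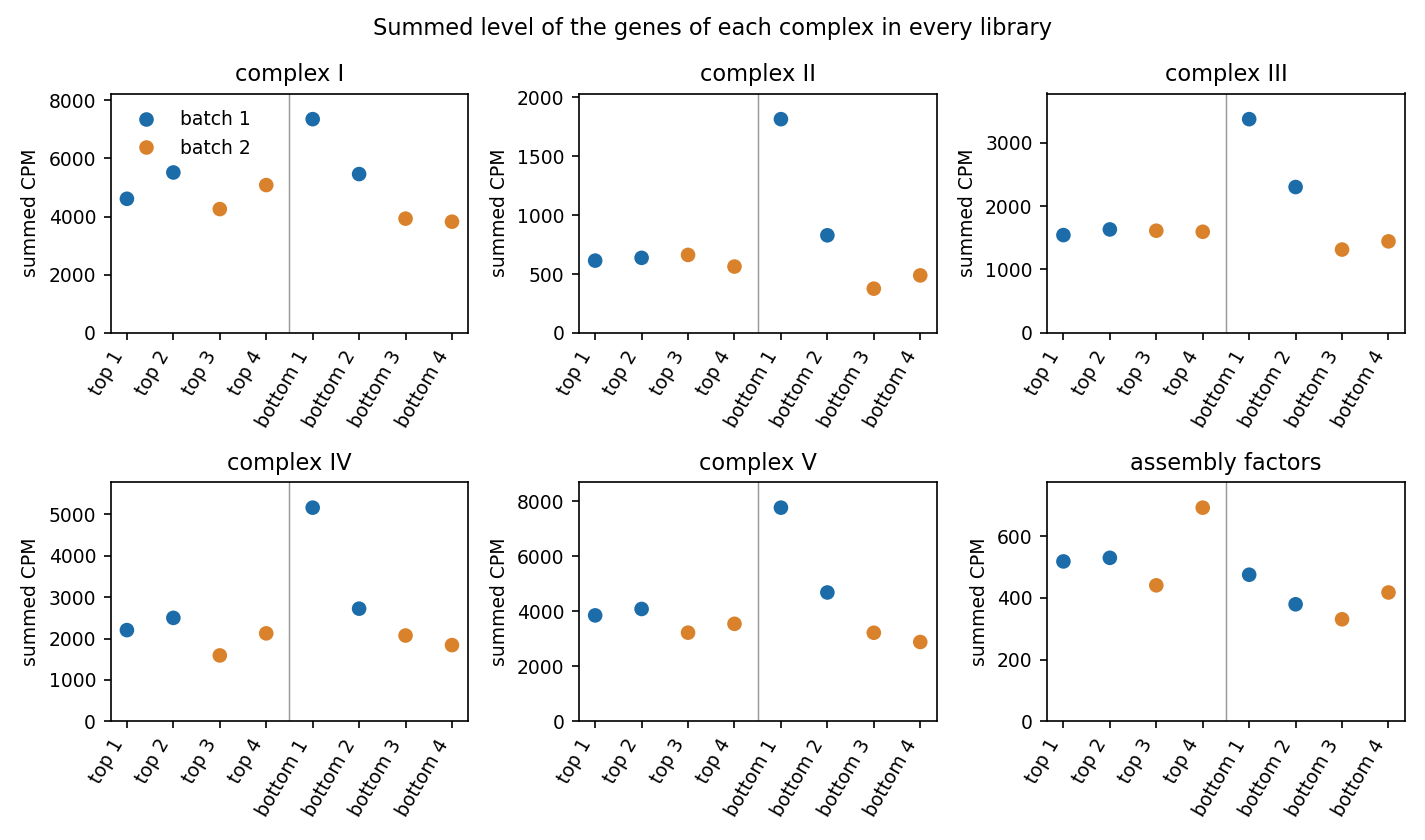
Summed level in CPM (vertical) of the genes of each complex and of the assembly factors in each of the 8 libraries (horizontal), with batch 1 and batch 2 in different colours. Bottom 1 is the highest library for complexes I to V, and for complexes I, II, III and V bottom 3 and bottom 4 are below all 4 top libraries.

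Complex IV, cytochrome c oxidase, had 12 tested genes, and its batch 2 median was close to 0 (0.00, with 6 of 12 positive). That median was -0.20 without top 3 and 0.32 without top 4. In batch 1 all 12 were positive, with a median of 0.68 that was 0.13 without bottom 1. The sum was 2206, 2501, 1594 and 2127 CPM in top 1 to top 4 and 5165, 2724, 2075 and 1843 CPM in bottom 1 to bottom 4. Bottom 3 and bottom 4 lay within the range of the top libraries. The smallest value over both batches was that of Cox8a, a small subunit, at 0.11, which was -0.03 without bottom 1.

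Cox6a1, the widely expressed isoform of subunit VIa, had the lowest adjusted p in batch 2 and was higher in bottom in both batches. It was at 333, 440, 101 and 101 CPM in top 1 to top 4. It was at 800, 437, 195 and 193 CPM in bottom 1 to bottom 4. Batch 1 libraries were above batch 2 libraries in both populations, and within batch 1 bottom 2 was level with top 2, so the separation was complete only in batch 2. Over both batches the log2 fold change was 0.81 (SE 0.256, adjusted p = 0.279), 0.68 in batch 1 and 0.94 in batch 2 (adjusted p = 0.616). The batch 1 value was 0.17 without bottom 1. Its difference between the batches was 0.26, and -0.17 without bottom 2.

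Several subunits of complex IV exist as isoforms with different tissue ranges, and Cox7a1 is the isoform known from heart and skeletal muscle. It was at 7.62, 1.13, 0.989 and 8.89 CPM in top 1 to top 4. It was at 164, 36.5, 1.58 and 1.11 CPM in bottom 1 to bottom 4. Both batch 1 bottom libraries were far above the rest, and the batch 2 bottom libraries were at the level of top 2 and top 3. The log2 fold change was 4.51 (SE 1.39, adjusted p = 0.264) in batch 1 and -1.86 (adjusted p = 0.849) in batch 2, and the difference of -6.37 had an adjusted p of 0.502. DESeq2 called it in batch 1 (adjusted p = 0.00583) and for the difference (adjusted p = 0.0163). The batch 2 value was 0.43 without top 4.

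The share of Cox7a1 in the counts of Cox7a1 and Cox7a2, the widely expressed isoform, was 31.4% in bottom 1 (exact 95% interval 30.1 to 32.8) and 14.6% in bottom 2 (13.2 to 15.9). It was 0.728% in bottom 3 and 0.694% in bottom 4. In top 1 to top 4 it was 3.97%, 0.514%, 0.68% and 4.52%. These intervals reflect counting error alone, because reads amplified by PCR and carrying no molecular identifiers can descend from a single molecule, and the shares are compared between libraries rather than between genes. The 4 libraries with the highest shares were bottom 1, bottom 2, top 4 and top 1, and the same 4 libraries had the highest sums of the intestinal markers. The 4 muscle markers summed to 3.02, 1.26, 4.33 and 24.0 CPM in top 1 to top 4 and to 11.03, 4.86, 0.316 and 2.13 CPM in bottom 1 to bottom 4. The part of either in the Cox7a1 level was not tested.

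The other tissue isoforms were at or near 0. Cox6a2, the heart and muscle isoform of subunit VIa, had 26, 5, 47 and 0 counts in top 1 to top 4 and 0 in each bottom library. Pooled over the libraries of a population this was 2.66 CPM in top, at least 35.6-fold higher than the 0.0747 CPM that the floor of 3 counts over the bottom population allows, with top 4 at 0 like bottom. It made up 1.11%, 0.143% and 5.43% of the Cox6a counts in top 1 to top 3. In bottom 1 to bottom 4 the floor allows shares of up to 0.041%, 0.0642%, 0.162% and 0.144%. Cox4i2 and Cox6b2 had 1 count each over the 8 libraries, and Cox7b2 and Cox8c had 0. Cox8b had 6 counts, all in top 2. Ndufa4l2, a relative of Ndufa4 known to be induced by hypoxia, had 5 and 8 counts in bottom 3 and bottom 4 and 0 in the other 6 libraries. None of these genes passed the filter, and none was tested.

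**Figure D3:**
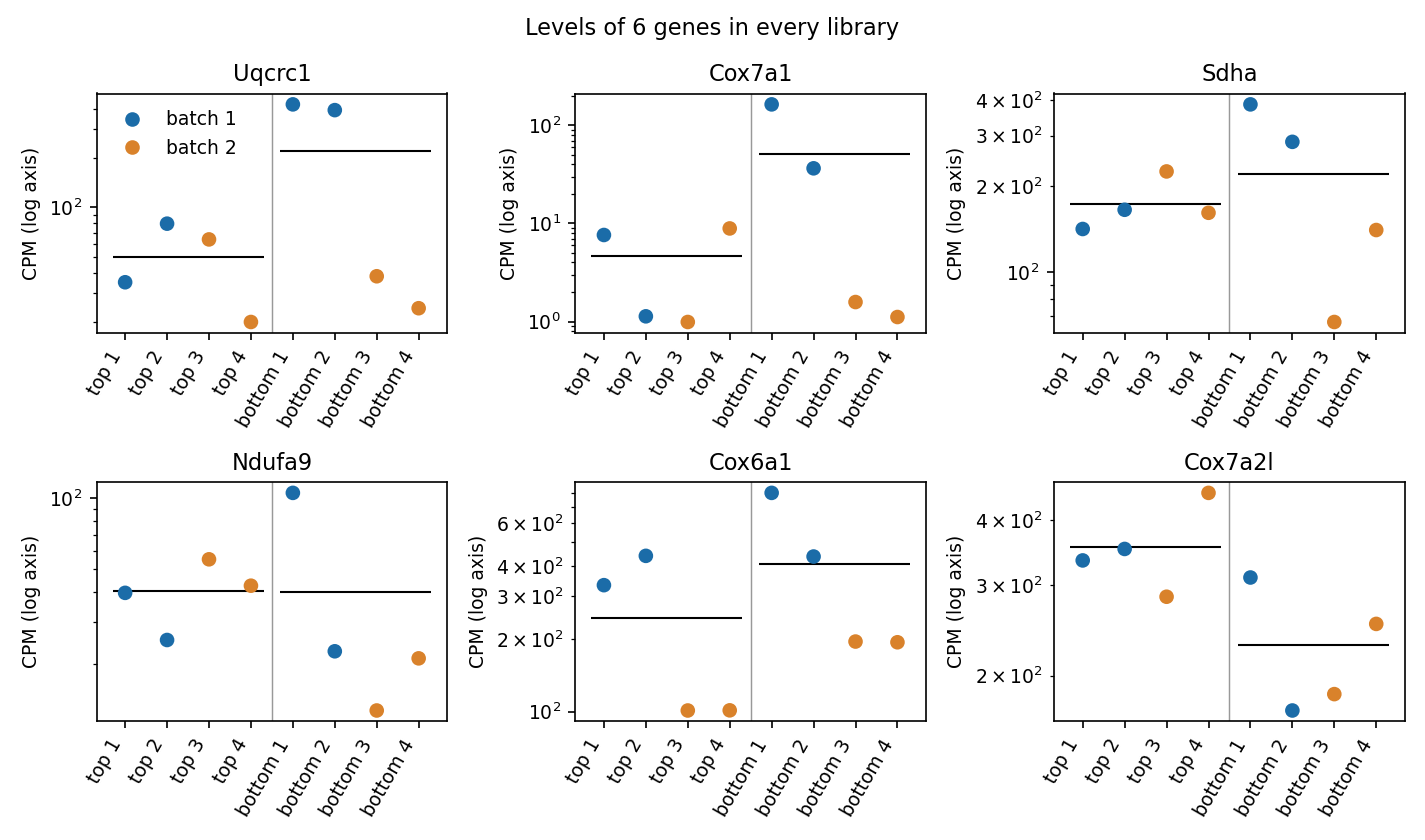
Level in CPM on a log axis (vertical) of 6 genes in each of the 8 libraries (horizontal), with batch 1 and batch 2 in different colours and a line at the mean of each population. Uqcrc1 and Cox7a1 are high in bottom 1 and bottom 2, Sdha is high there and low in bottom 3, and Cox7a2l is lower in bottom than in top within each batch.

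Complex V is the ATP synthase, made of the catalytic F1 part and the membrane-bound Fo part with its stalks. Its 15 genes summed to 3855, 4089, 3226 and 3548 CPM in top 1 to top 4 and to 7774, 4688, 3223 and 2887 CPM in bottom 1 to bottom 4. Bottom 1 was the highest, bottom 2 was next, and bottom 3 was nearly level with top 3. In batch 1, 13 of 15 values were positive with a median of 0.69 (0.31 without bottom 1), and in batch 2, 11 of 15 were negative with a median of -0.13. The 5 F1 genes had medians of 0.85 and -0.03 and the 10 Fo and stalk genes 0.49 and -0.17. All 15 had the larger value in batch 1.

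Atp5d, the delta subunit of F1, was at 59.6, 46.8, 29.3 and 23.7 CPM in top 1 to top 4. It was at 160, 119, 25.9 and 32.0 CPM in bottom 1 to bottom 4. Both batch 1 bottom libraries were above the other 6 libraries. The log2 fold change was 1.40 (SE 0.458, adjusted p = 0.286) in batch 1, 0.13 in batch 2 and 0.76 over both batches (adjusted p = 0.543), and DESeq2 called it in batch 1 (adjusted p = 0.0354). Atp5e, the epsilon subunit of F1, was the lowest of the complex at -0.30 (adjusted p = 0.764), with 181 to 251 CPM in top and 148 to 240 CPM in bottom. Its value was 0.03 with library totals alone.

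The c subunits that form the rotor ring of Fo are encoded by Atp5g1, Atp5g2 and Atp5g3, whose mature proteins are the same. Atp5g3 made up 20.9%, 23.3%, 21.4% and 22.8% of the counts of these genes in top 1 to top 4. Its share was 35.7%, 32.9%, 34.2% and 21.1% in bottom 1 to bottom 4. Bottom 1, bottom 2 and bottom 3 were above all top libraries, and bottom 4 was within their range. The log2 fold change of Atp5g3 was 0.66 over both batches (adjusted p = 0.521), with 0.99 in batch 1 and 0.33 in batch 2. Atp5g1 made up 43.7 to 54.7% in top and 39.9 to 47.8% in bottom.

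The 10 assembly factors and related genes had a median of 0.00 in batch 1, with 5 of 10 positive. This median was -0.50 without bottom 2 and 0.16 without bottom 1. In batch 2 the median was -0.33 with 7 of 10 negative, and -0.79 without bottom 4. None was called, and whether they differ from the subunits was not tested. Their sum was 518, 530, 441 and 693 CPM in top 1 to top 4 and 475, 379, 331 and 418 CPM in bottom 1 to bottom 4, with each bottom library below both top libraries of its batch.

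Most of that sum was Cox7a2l, a factor that joins complexes III and IV into supercomplexes. It was at 334, 352, 284 and 452 CPM in top 1 to top 4. It was at 310, 171, 184 and 252 CPM in bottom 1 to bottom 4. Within each batch both bottom libraries were below both top libraries, while across batches bottom 1 overlapped top 3. The log2 fold change was -0.63 (SE 0.279, adjusted p = 0.478), with -0.51 in batch 1 and -0.76 in batch 2. Ndufaf6, a complex I assembly factor, had the lowest value of all 85 genes at -3.69 (SE 1.54, adjusted p = 0.439). It was at 14.4, 13.1, 0.247 and 9.69 CPM in top 1 to top 4 and at 1.09, 0, 1.26 and 0.185 CPM in bottom 1 to bottom 4. Top 3 overlapped the bottom libraries. Its difference between the batches was 1.87, the highest of the 85, and 0.01 without bottom 3. The highest value of the group was that of Atp5sl, 1.01 (adjusted p = 0.840), which was -0.19 without bottom 2.

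The other genes of mitochondrial energy metabolism, in lists chosen by function, held 0 called genes in edgeR and in limma-trend in each comparison, and DESeq2 called a few of them. Of all genes with any counts, DESeq2 called 848 over both batches, 795 in batch 1, 480 in batch 2 and 316 for the difference. Of 10 other respiratory chain genes, 9 had positive values in batch 1 with a median of 0.88, and 6 had negative values in batch 2 with a median of -0.06. Cytochrome c1 (Cyc1), the complex III subunit outside the name pattern, was the highest of these in batch 1. It was at 18.1, 30.8, 25.6 and 29.2 CPM in top 1 to top 4 and at 259, 61.7, 11.8 and 27.7 CPM in bottom 1 to bottom 4. Its log2 fold change was 2.71 in batch 1 (adjusted p = 0.241) and -0.47 in batch 2, so that it was high in the same libraries as Uqcrc1. The lowest of this list in each batch was Gpd2, the mitochondrial glycerol phosphate dehydrogenase, with -1.37 and -1.83 and a value of -1.60 over both (adjusted p = 0.214). At an unadjusted p under 0.05 this list had 4 higher and 0 lower genes in batch 1 and 0 higher and 1 lower in batch 2. Of all tested genes, 5.87% were higher and 6.19% lower in batch 1, and 3.93% higher and 3.39% lower in batch 2. DESeq2 called 2 of this list as higher in batch 1, Cyc1 and Etfdh, which feeds electrons from fatty acid oxidation into ubiquinone. Over both batches it called Etfdh as higher and Gpd2 as lower.

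The genes of pyruvate dehydrogenase and the citric acid cycle, which supply the electrons, had the same batch pattern. All 17 had positive values in batch 1, with a median of 0.75, and 12 of 17 had negative values in batch 2, with a median of -0.36. Their sum was 1765, 1705, 1547 and 1821 CPM in top 1 to top 4 and 5635, 2776, 1368 and 1346 CPM in bottom 1 to bottom 4. Mdh2, the malate dehydrogenase of the cycle, was the highest in batch 1 at 2.29 and had the lowest adjusted p (0.180), and citrate synthase (Cs) was the lowest in batch 2 at -1.21. At an unadjusted p under 0.05, 6 were higher in batch 1, against 5.87% of all tested genes. In batch 2, 1 was higher and 1 lower, against 3.93% and 3.39%. DESeq2 called 4 as higher in batch 1 (Cs, Idh3b, Mdh2 and Sucla2) and 1 in batch 2 and over both batches (Suclg2). For the difference between the batches it called Cs, Idh3b and Sucla2 as lower in batch 2. The 19 genes of carriers, channels and import had medians of 0.21 and -0.23 in the batches. At an unadjusted p under 0.05, 5 were higher in batch 1, against 5.87% of all tested genes, and DESeq2 called 3 there. In batch 2 DESeq2 called 1 of them as higher, the mitofusin gene Mfn1.

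The batch medians of the other mitochondrial and ribosomal lists ranged from near 0 to those of the regulators of mitochondrial gene expression, which were close to those of the oxidative phosphorylation genes. The 29 tested assembly factors outside the name pattern had medians of -0.04 in batch 1 and -0.10 in batch 2, and DESeq2 called 0 of them. The 76 mitochondrial ribosomal protein genes had 0.02 and -0.08, with 42 of 76 positive in batch 1. The 77 tested cytosolic ribosomal protein genes had 0.04 and 0.15, with 44 of 77 positive in batch 1 and 63 of 77 in batch 2. Their sum was 30106 to 37751 CPM over the 8 libraries, and the populations overlapped. In batch 2 alone, bottom 3 and bottom 4 (35940 and 37158 CPM) were above top 3 and top 4 (30106 and 35813 CPM). The 13 regulators of mitochondrial gene expression had 0.64 and -0.33, with 8 of 13 positive in batch 1 and 5 of 13 in batch 2. They included Nrf1, Gabpa and Yy1, whose motifs were searched above and whose estimates did not share 1 pattern. In batch 1 and batch 2 Nrf1 had 1.98 and 0.09, Gabpa 0.83 and -0.58, and Yy1 -1.44 and 0.35. The edgeR test called none of these (adjusted p = 0.651, 0.885 and 0.404 in batch 1), and Nrf1 was only at 1.27 to 16.3 CPM. Gabpa was at 84.9 and 4.49 CPM in bottom 1 and bottom 2, and at 25.0 and 25.4 CPM in top 1 and top 2. No test compared these lists with the oxidative phosphorylation genes.

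**Figure D4:**
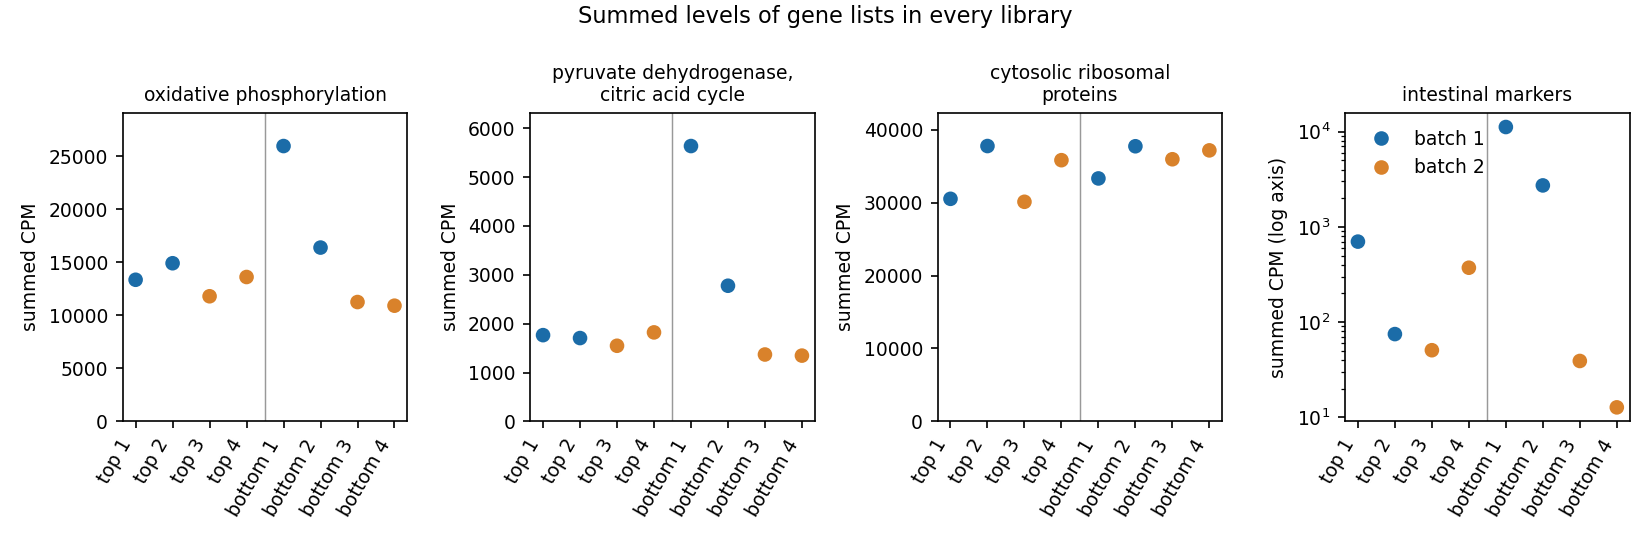
Summed level in CPM (vertical, a log axis for the intestinal markers) of 4 gene lists in each of the 8 libraries (horizontal), with batch 1 and batch 2 in different colours. Bottom 1 and bottom 2 are the highest libraries for oxidative phosphorylation, the citric acid cycle and the intestinal markers, while the ribosomal protein sums stay between 30106 and 37751 CPM.

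Immediate early and stress transcripts were mostly higher in bottom in both batches. The 11 immediate early and dissociation stress genes all had positive values over both batches with a median of 0.73, and 9 of 11 were positive in batch 1 and 11 of 11 in batch 2. Of these only Dnajb1, a heat shock co-chaperone, passed the test (1.32, SE 0.203, adjusted p = 0.0356). Their sum was 3430 to 5989 CPM in top and 6037 to 10256 CPM in bottom, and was highest in bottom 3 and bottom 4, where the oxidative phosphorylation sums were lowest. The acinar markers summed to 1076 CPM in bottom 2 and to at most 221 CPM in any other library. The part of these in the levels above was not tested.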

How the data were processed

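RNA was measured in 8 libraries, 4 of each sorted population. The deposited values were expected counts per gene symbol, which the authors made with RSEM, per the submitters' processing notes, which also name edgeR and mm9. Versions, the aligner and the annotation are not given in the sources used here. RSEM divides reads among similar genes, and 74.6% of the values of the 92 genes were not whole (34.8% of all values), so levels of genes with close copies are less certain. Per the labels' protocols, cDNA came from the SMARTer Ultra Low RNA kit and libraries from Nextera XT. The kit is not stated to keep strand, so overlapping antisense genes could not be separated. No mitochondrially encoded gene name was found.

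Expected counts were rounded, scaled by TMM and filtered with filterByExpr by population. This left 11721 genes with at least 98.01% of each library's counts. The edgeR 4.0.16 quasi-likelihood test (R 4.3.3) compared bottom with top with batch as a covariate. A fit with 1 mean per population and batch gave each batch's contrast and their difference, so that the spread is shared by all 8 libraries. P-values were adjusted by Benjamini-Hochberg over all genes tested, with a threshold of 0.05. The common biological coefficient of variation was 0.806. DESeq2 1.42.0, limma-trend (limma 3.58.1), other scalings, no filter, no batch term, separate batches, a replicate block and the omission of each library were alternatives. DESeq2 was run without filterByExpr, on all genes with any counts. Scripts were tested on simulated data.

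The genes and the lists were chosen with earlier results of these data known. Named were the genes with the highest and lowest value of each complex, the 4 largest differences between batches in each direction, genes with non-overlapping populations and the tissue isoforms, and in other lists the called genes and extremes. Other genes are named after their values were seen. The results of 1 gene of the rule are not reported here.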

Additional observations from a re-analysis of the deposited data

Results flagged for a closer look

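In 3 of 64 groups of 4 libraries tested, 1 library lay so far from the others that its gap to the nearest exceeded Dixon's critical share of the group's range at 95% confidence. Chance gives about 1 such group in 20. All 3 were bottom 1. Sdhb was at 594.7 CPM in bottom 1 and at 132.7 to 188.4 CPM in the other bottom libraries. Ndufa9 was at 105 CPM in bottom 1 and at 12.75 to 22.62 CPM in the others. Cox6b1, the widely expressed isoform of subunit VIb of cytochrome c oxidase, was at 368.8 CPM in bottom 1 and at 188.2 to 216.9 CPM in the others.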

How the results depend on the processing

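The batch directions kept their sign relative to all genes in the alternatives run, but calls of single genes depended on the tool and on the filter. DESeq2 called 1 of the genes over both batches, 3 in batch 1 (Uqcrc1, Cox7a1 and Atp5d) and 2 for the difference (Uqcrc1 and Cox7a1). Run without the filter on low counts, edgeR called 1 of them in batch 1 (Uqcrc1), where it called 204 of all genes. Over all genes edgeR called 52 over both batches and 8 in batch 1 with the filter, and 204 in each without it. DESeq2, also run without the filter, called 848 and 795. With each library left out in turn edgeR called 0 of the genes in each comparison and 8 to 60 of all genes over both batches. With library totals alone the medians were 0.54 over both batches, 0.26 in batch 2 and -0.36 for the difference, with 16 negative values in batch 2. Without bottom 1 and bottom 2, chosen after seeing the data, the median was -0.23 with 22 positive values. No bottom library of batch 1 is then left, so this is the batch 2 comparison alone. Leave-one-out medians were 0.000012 to 0.31 over both batches, 0.23 to 0.95 in batch 1, -0.29 to -0.085 in batch 2 and -1.07 to -0.37 for the difference.

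The replicate block, made of the batch and the number in the title, gave a median of 0.43 over both batches and 0 calls. It called 0 of all genes as well, so the lack of calls among these genes cannot set them apart. Within a batch only title number 1 occurs in both top and bottom. The median with the block therefore rests on the libraries with that number, and the other libraries do not contribute to it. Deviations of same-numbered libraries correlated at 0.0926 in batch 1 and -0.00134 in batch 2. Each is a single correlation of deviations from means of 2 libraries, which cannot decide whether the libraries are paired. The labels do not say what the shared number means.

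Signs of some single genes turned. Over both batches Uqcrq (-0.02) was 0.0348 in DESeq2, 0.32 with library totals alone, 0.0391 with RLE scaling, 0.0309 with hormone genes left out, 0.0228 without the batch term, 0.19 with the block and -0.23 to 0.10 with 1 library left out. Sdhc (0.01) was -0.0190 in limma-trend and -0.0235 without the filter, -0.39 to 0.29 with 1 library left out and -0.67 without bottom 1 and bottom 2. Atp5e was 0.0286 with library totals alone, and Atp5sl was -0.68 with the block and -0.19 to 1.38 with 1 library left out. Cox7a1 (1.41) was -0.32 to 2.99 with 1 library left out and -1.87 without bottom 1 and bottom 2, where Uqcrc1 was -0.43 and Cox8a -0.0502. The values without bottom 1 and bottom 2 are those of batch 2 alone, so they are not turns over both batches. Cox8a was -0.0302 to 0.26 with 1 library left out. In batch 2, Uqcrc1 was 0.11 with library totals alone and -1.05 to 0.63 with 1 library left out, and Cox7a1 was -2.73 to 0.43. Ndufa9 in batch 1 was -0.53 to 1.74. For the difference, Ndufb2 was -0.0900 to 2.56, Cox6a1 -0.17 to 0.75 and Ndufc2 -0.20 to 0.50. The common variation of 0.806 limits what single genes can show with 2 libraries per population and batch.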
